A study of Homo sapiens with 12 samples.

Results

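Apolipoproteins are the protein parts of lipoproteins, the particles that carry cholesterol and triglyceride in blood, and 10 of their genes (APOA1, APOA2, APOA4, APOA5, APOB, APOC1, APOC3, APOE, APOH and APOM) were followed in HepG2 cells after toosendanin. They were taken by gene symbol: all 10 stood among the 28265 genes of the expression table, and 8 of them carried 21 of the 46178 regions of the m6A table, with none listed under APOC3 or APOM. The 4 groups were toosendanin m6A IP, toosendanin input, control m6A IP and control input, with 3 libraries each and 12 in all. IP is RNA pulled down with an antibody against N6-methyladenosine (m6A), a methyl mark inside mRNA, and input is the RNA before the pull-down. All libraries came from HepG2, an established human liver tumour line, toosendanin is a triterpenoid of Melia plants known for liver toxicity, and the labels give neither its dose, nor the time, nor what the control cells received. The region counts were sums over the libraries of a group and came to 29094328 for toosendanin IP, 24253006 for toosendanin input, 42316089 for control IP and 34131862 for control input. No value of a single library was used here, so the spread between libraries enters only through the standard errors of the authors' deposited table, and in a bulk culture a change in the mix of cells and a change of RNA per cell cannot be told apart.

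The liver is the main source of most plasma apolipoproteins. APOB stays on its particle for life and is the scaffold of very low and low density lipoproteins, whereas the small exchangeable apolipoproteins of the A, C and E classes move between particles, build high density lipoprotein and steer lipases and receptors. Several of the exchangeable genes sit side by side in the genome, in a cluster on chromosome 11 (APOA5, APOA4, APOC3 and APOA1) and in another on chromosome 19 (APOE, APOC1, APOC4 and APOC2). The label of the cells matched their transcripts: all 12 hepatocyte markers were listed in the authors' deposited table, from TTR at a mean normalized count of 5546 to SERPINA1 at 189276.

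All 7 transcripts of the A, C and E classes among the 10 genes rose after toosendanin, and the APOB transcript did not pass the test. In the authors' deposited table, 7 of the 10 genes were higher at an adjusted p under 0.05 and 0 were lower, where 15.7% of the 16552 genes with an adjusted p were called higher and 15.7% lower (31.4% in all). All 10 had a mean normalized count above 1000, and among the 5444 genes at that level 24.0% were called higher in the authors' deposited table. The median log2 fold change of the 10 genes was 0.75, beside -0.000226 over all genes with an adjusted p. At a change of at least 2-fold, APOA4 and APOC3 were called, 2 of 10, where 3.84% of all genes were called higher, and APOA2 lay just under that limit.

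**Figure D1:**
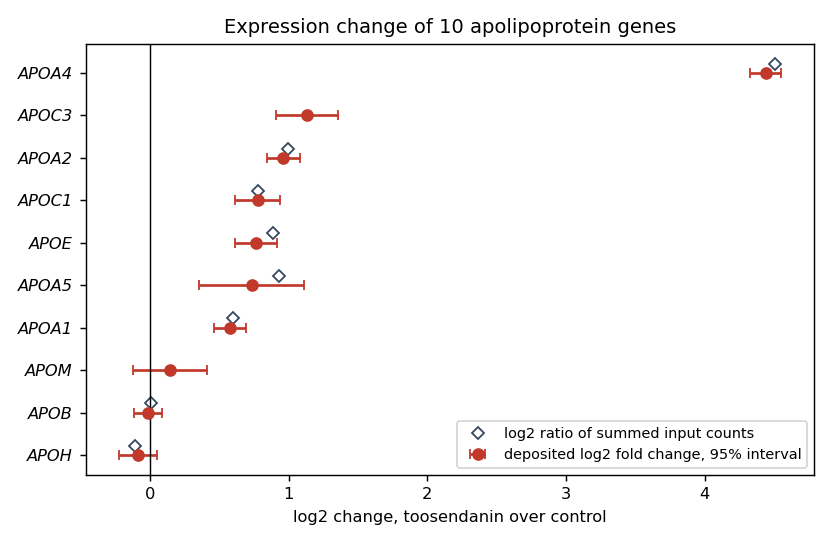
Log2 change of expression, toosendanin over control, for the 10 apolipoprotein genes: filled points are the authors' deposited log2 fold changes with 95% intervals from their standard errors, and open diamonds are log2 ratios of the input counts summed over a gene's regions and scaled to total counts. APOA4 stands apart at 4.44, 6 genes lie between 0.58 and 1.13, and the intervals of APOM, APOB and APOH span 0.

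APOA4, which in humans is made mostly by the intestine and rides on chylomicrons and high density lipoprotein, had the largest change. Its single region held 15281 counts in toosendanin input, against 946 in control input. Scaled to the total region counts of each sum as counts per 1000000 (CPM), that is 630.1 CPM after toosendanin (95% exact Poisson interval 620.1 to 640.1) and 27.7 CPM in control (26.0 to 29.5), a 22.7-fold difference. The intervals cover counting error only and lie far apart. In the authors' deposited table APOA4 had a log2 fold change of 4.44 ± 0.06 (± is the standard error throughout), with an adjusted p of the DESeq2 test listed as 0. No other gene of the authors' deposited table had a larger Wald statistic in size, and none of the 5444 genes with a mean normalized count of at least 1000 had a larger log2 fold change.

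The neighbours of APOA4 in the chromosome 11 cluster rose as well, but by far less. APOC3, an inhibitor of lipoprotein lipase and of the uptake of triglyceride-rich remnants, was 1.13 ± 0.11 higher (DESeq2 adjusted p = 1.9e-21 in the authors' deposited table). APOA5, which promotes the breakdown of plasma triglyceride, was 0.73 ± 0.19 higher (DESeq2 adjusted p = 0.000864 in the authors' deposited table), with summed input of 77.0 CPM after toosendanin and 40.3 CPM in control. APOA1, the main structural protein of high density lipoprotein, was 0.58 ± 0.06 higher (DESeq2 adjusted p = 9.8e-21 in the authors' deposited table), with 4565 CPM after toosendanin and 3023 CPM in control. The 95% interval of APOA4, from 4.33 to 4.55, lies above those of APOC3 (0.91 to 1.36), APOA5 (0.35 to 1.11) and APOA1 (0.46 to 0.69) on the log2 scale, so all 4 genes of the cluster were called higher and 1 of them stood apart.

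The promoter windows of APOA4 and of its cluster neighbour APOA5, which rose, are printed beside that of APOM, which did not pass, because letters that resemble sites of liver transcription factors occur in all of them. Each window runs from 250 bases before to 50 after a start site, 5′ to 3′ on the gene's strand, from RefSeq on GRCh38.p14, and 7 of the 10 genes had an entry. Capitals mark matches, on either strand, of AGGTCA and GGGTCA (half-sites of nuclear receptors), AGTCCA (a half-site of the HNF4 type) and TATAAA (the letters of the TATA box). None of these motifs overlapped another in the windows shown.
APOA4, chr11:116823255-116823554, minus strand: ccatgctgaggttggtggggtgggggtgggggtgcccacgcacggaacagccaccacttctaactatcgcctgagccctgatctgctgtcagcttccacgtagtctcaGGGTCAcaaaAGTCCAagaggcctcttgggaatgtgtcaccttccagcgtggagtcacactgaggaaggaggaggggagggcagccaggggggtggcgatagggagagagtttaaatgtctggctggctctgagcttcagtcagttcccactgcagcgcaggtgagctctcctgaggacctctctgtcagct
APOA5, chr11:116792371-116792670, minus strand: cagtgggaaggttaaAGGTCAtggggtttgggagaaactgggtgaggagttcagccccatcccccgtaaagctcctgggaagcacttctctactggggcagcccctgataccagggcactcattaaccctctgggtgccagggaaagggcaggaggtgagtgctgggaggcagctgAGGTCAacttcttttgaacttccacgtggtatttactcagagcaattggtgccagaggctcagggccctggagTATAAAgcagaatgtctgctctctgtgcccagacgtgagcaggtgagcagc
APOM, chr6:31655644-31655943, plus strand: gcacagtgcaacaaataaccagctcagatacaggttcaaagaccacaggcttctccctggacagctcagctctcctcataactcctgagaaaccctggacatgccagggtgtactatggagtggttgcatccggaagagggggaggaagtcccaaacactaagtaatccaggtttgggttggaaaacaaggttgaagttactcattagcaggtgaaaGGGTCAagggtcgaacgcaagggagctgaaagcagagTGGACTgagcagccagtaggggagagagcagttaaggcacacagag
In the APOA4 window GGGTCA began at position -142 and AGTCCA at -132 from the start site. The APOA5 window held AGGTCA at -235 and -74 and TATAAA at -1, where the letters run across the listed start site itself. APOM held GGGTCA at -33 and a reverse AGTCCA at 5. APOC1 held a reverse GGGTCA at -124, and no match was found in the windows of APOA2, APOE and APOH. Among all 35116 windows of the table, 13.8% held AGGTCA, 14.1% GGGTCA, 11.8% AGTCCA and 11.5% TATAAA, so a match is a description of letters and not a site.

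Genes beside the chromosome 11 cluster did not move with it as a block. In gene order along the chromosome (RefSeq, GRCh38.p14), BUD13 and ZPR1 precede APOA5, and SIK3, PAFAH1B2 and SIDT2 follow APOA1. ZPR1, a zinc finger protein, stood at 0.10 ± 0.07, SIK3, a salt-inducible kinase, at -0.05 ± 0.08 and PAFAH1B2 at 0.15 ± 0.11 in the authors' deposited table, and none of them passed the test. BUD13, a splicing factor, was lower at -0.42 ± 0.11 and SIDT2, a lysosomal membrane protein, higher at 0.56 ± 0.13 in the authors' deposited table. Of these 5 flanking genes 1 was called higher and 1 lower (40% called), against 4 higher of 4 inside the cluster. Over all genes 31.4% were called, and over those with a mean normalized count of at least 1000, 50%. The flanking share lies between those values. The antisense transcript APOA1-AS overlaps APOA1 and had a mean normalized count of 1.32 in the authors' deposited table, with no adjusted p.

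On chromosome 19 APOE, APOC1 and APOC2 also rose between neighbours that did not. APOE, the ligand by which remnants bind their receptors on cells, was 0.77 ± 0.08 higher (DESeq2 adjusted p = 1.87e-21 in the authors' deposited table), with 2373 CPM in toosendanin input and 1284 in control input. APOC1, which inhibits cholesteryl ester transfer protein, was 0.78 ± 0.08 higher (DESeq2 adjusted p = 1.94e-19 in the authors' deposited table), with 223.6 CPM after toosendanin and 130.4 in control. These log2 fold changes of APOE and APOC1 did not differ beyond their standard errors. APOC2, the cofactor of lipoprotein lipase and not among the 10 genes, was 1.06 ± 0.23 higher (DESeq2 adjusted p = 4.61e-05 in the authors' deposited table), while APOC4, with a mean normalized count of 9.51, missed the threshold at 4.51 ± 1.92 in the authors' deposited table (DESeq2 adjusted p = 0.0579). The pseudogene APOC1P1, whose sequence resembles APOC1 and may share reads with it, stood at 0.30 ± 0.29 in the authors' deposited table and did not pass.

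On one side of that cluster the flanking genes fell. TOMM40, a pore of the mitochondrial outer membrane, was lower at -0.40 ± 0.14, the adhesion molecule NECTIN2 at -0.38 ± 0.09 and the laminin receptor BCAM at -0.75 ± 0.09 in the authors' deposited table. On the other side CLPTM1 stood at 0.12 ± 0.06 and RELB, a subunit of NF-kB, at 0.03 ± 0.15 in the authors' deposited table, and neither passed. Thus 3 of 5 flanking genes were lower and 0 higher. Of all genes with an adjusted p, 15.7% were called lower and 15.7% higher. Among the 5444 genes with a mean normalized count of at least 1000, 1414 were called lower. A difference of these 5 genes from those shares was not tested.

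**Figure D2:**
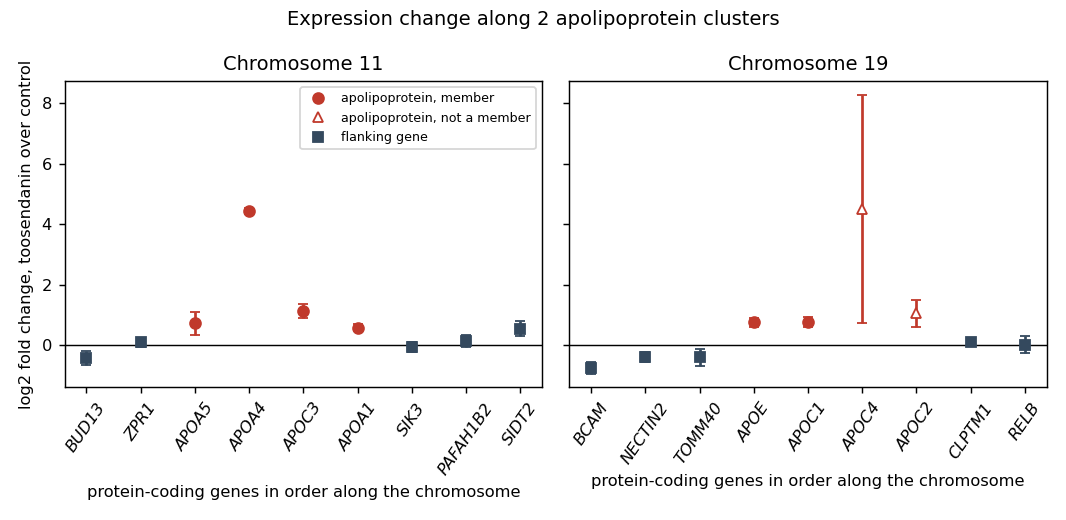
The authors' deposited log2 fold changes (toosendanin over control, with 95% intervals) of protein-coding genes in their order along chromosomes 11 and 19; circles are apolipoproteins among the 10 genes, open triangles are APOC4 and APOC2, and squares are flanking genes. Between the flanking genes, APOA5, APOA4, APOC3 and APOA1 on chromosome 11 and APOE, APOC1 and APOC2 on chromosome 19 lie above 0, and the interval of APOC4 is wide.

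APOA2, the second most abundant protein of high density lipoprotein, lies alone on chromosome 1 and had a larger change than APOA1. Its input stood at 3082 CPM after toosendanin (3060 to 3105) and at 1551 CPM in control (1538 to 1564). In the authors' deposited table it was 0.96 ± 0.06 higher (DESeq2 adjusted p = 8.28e-54), and its 95% interval of 0.84 to 1.08 lies above that of APOA1.

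APOB, APOH and APOM did not pass. APOB was the second most highly counted gene of the authors' deposited table, with a mean normalized count of 411979, and its log2 fold change was -0.01 ± 0.05 (95% interval -0.11 to 0.09, DESeq2 adjusted p = 0.895), so a change as large as that of APOA1 lies outside the interval. Its 9 regions together held 14292 CPM after toosendanin and 14250 CPM in control. APOH, a phospholipid-binding plasma protein also called beta-2-glycoprotein I, stood at -0.09 ± 0.07 in the authors' deposited table (95% interval -0.23 to 0.05), with 179.1 CPM after toosendanin and 193.6 in control. APOM, a lipocalin of high density lipoprotein that carries sphingosine-1-phosphate, stood at 0.14 ± 0.14 in the authors' deposited table (95% interval -0.12 to 0.41).

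The region counts give a second reading of expression. For the 8 genes with regions, the log2 ratio of summed inputs differed from the fold change of the authors' deposited table by at most 0.20, and 7 of 8 signs were the same. The exception was APOB, at 0.00 in the inputs. Both readings may rest on the same input libraries, since the libraries behind the deposited fit are not named. The 21 regions together took 2.54% of all input counts after toosendanin and 2.05% in control, and APOB made up 56.2% of them after toosendanin and 69.5% in control.

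**Figure D3:**
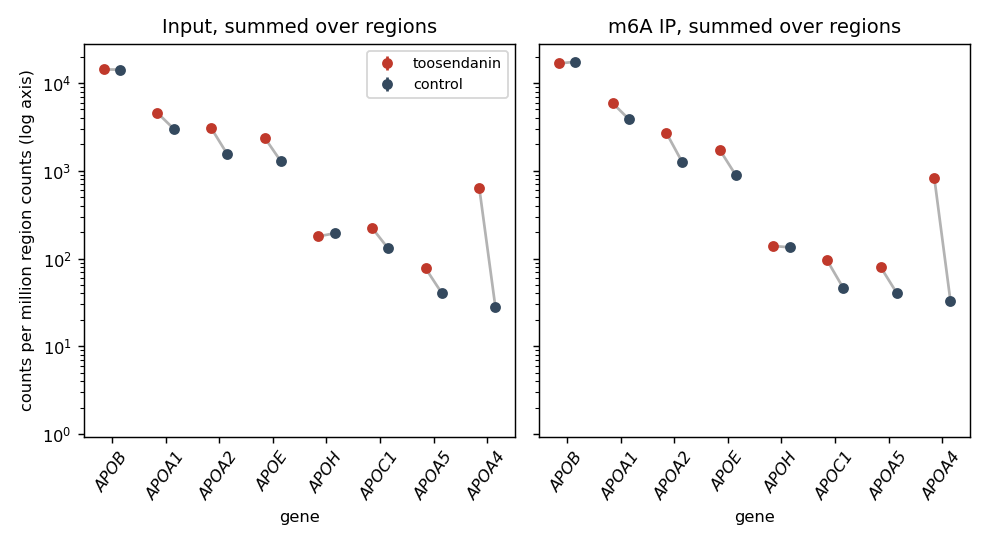
Counts per 1000000 region counts (CPM), summed over the regions of a gene, in input (left) and m6A IP (right) for the 8 genes with regions, with toosendanin left of control for each gene on a log axis and 95% exact Poisson intervals, most of them smaller than the points. APOA4 input stands at 630.1 after toosendanin and 27.7 in control, and APOB at 14292 after toosendanin and 14250 in control; the values are not corrected for length, so heights are to be compared within a gene.

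Other genes of lipoprotein metabolism moved in both directions. Over the 73 genes with an adjusted p from the lists of other apolipoproteins, assembly, remodelling, receptors and regulators, 23 were higher and 9 lower in the authors' deposited table (43.8% called, with a median log2 fold change of 0.09). Of all genes 31.4% were called, and of those with a mean normalized count of at least 1000, 50%. The share of calls over these lists lies between those values. Of 13 genes on the list of other apolipoproteins, which also holds genes only named after them, 2 were higher and 1 lower. The called ones were APOC2 above, the minor plasma apolipoprotein APOF at 0.51 ± 0.19 and the intracellular APOL2 at -0.71 ± 0.29 in the authors' deposited table. Of 15 genes of particle assembly and lipid secretion 5 were higher and 1 lower. Among them DGAT2, which makes triglyceride, stood at 0.75 ± 0.24, SAR1B, which sends lipoproteins out of the endoplasmic reticulum, at 0.46 ± 0.09, SOAT2, which esterifies cholesterol, at 0.34 ± 0.11 and P4HB, the small subunit of the lipid transfer protein that loads APOB, at 0.19 ± 0.05 in the authors' deposited table. ABCA1, which loads lipid onto APOA1, was lower at -0.75 ± 0.07, and MTTP, the large subunit of the transfer protein, stood at -0.13 ± 0.07 in the authors' deposited table and did not pass.

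Of 9 remodelling genes 3 were higher and 0 lower in the authors' deposited table: hepatic lipase LIPC at 0.75 ± 0.10, the phospholipid transfer protein PLTP at 0.74 ± 0.13 and ANGPTL8, an inhibitor of lipoprotein lipase, at 0.87 ± 0.13. The authors' deposited table also lists ANGPTL4, another inhibitor of that lipase, at 1.24 ± 0.52, and it did not pass. Receptors split into 2 higher and 2 lower of 11. The shares called, 33.3% of the remodelling genes and 36.4% of the receptors, lie near the 31.4% over all genes. VLDLR, a receptor of triglyceride-rich particles, stood at 0.93 ± 0.11, against the APOE receptor LRP8 at -0.84 ± 0.15 and the ubiquitin ligase MYLIP at -0.68 ± 0.20 in the authors' deposited table.

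Of 25 regulators of apolipoprotein genes 11 were higher and 5 lower (64% called). Over all genes 31.4% were called, and over the 5444 genes with a mean normalized count of at least 1000, 50%. Of the 12 hepatocyte markers 75% were called. The nuclear receptor NR0B2 stood at 1.48 ± 0.19, CEBPA at 0.94 ± 0.18 and RXRA at 0.53 ± 0.10, against NR2F1, which binds nuclear receptor sites, at -1.16 ± 0.11 in the authors' deposited table. HNF4A, a main driver of liver apolipoprotein genes, was 0.16 ± 0.06 higher (DESeq2 adjusted p = 0.0137 in the authors' deposited table). PPARA, the receptor that fibrates act on, was 1.14 ± 0.38 higher (DESeq2 adjusted p = 0.0118 in the authors' deposited table). CREB3L3, a liver factor known in mice to drive Apoa4, stood at -1.21 ± 0.78 in the authors' deposited table and did not pass. Of 12 hepatocyte markers 4 were higher and 5 lower, with ALB at 0.52 ± 0.08 and RBP4 at 0.44 ± 0.08 against FGA at -0.78 ± 0.06, FGG at -0.53 ± 0.05 and AFP at -0.29 ± 0.06 in the authors' deposited table.

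Because APOA4 is an intestinal gene in humans, markers of enterocytes are given beside it. Of 9 with an adjusted p, 2 were higher and 2 lower in the authors' deposited table (44.4% called). That share lies between the 31.4% over all genes and the 50% over genes with a mean normalized count of at least 1000. The intestinal enzyme SI and the factor CDX1 were listed at a mean of 0. The highest of the 12 enterocyte markers was VIL1, at a mean normalized count of 18587 in the authors' deposited table. CDHR2, a brush border cadherin, was 1.49 ± 0.06 higher, against MEP1A at -0.55 ± 0.08 and VIL1 at -0.16 ± 0.05 in the authors' deposited table. ALPI, intestinal alkaline phosphatase, was also called higher (DESeq2 adjusted p = 1.03e-15 in the authors' deposited table). It had 31 toosendanin input counts in 2 regions, against 0 in control input. That is 14.5-fold higher when control is set at the limit of 3 counts over the group. The counting error of the 31 counts is not included in this value. The part of these genes in the rise of APOA4 was not tested.

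The APOA4 transcript rose in the m6A IP as it did in the input, and its m6A change was not called. APOA4 had 817.7 CPM in toosendanin IP and 32.7 in control IP, a 25.02-fold difference. Its IP over input ratio, scaled to total counts, was 1.30 after toosendanin and 1.18 in control. The log2 m6A change of the authors' deposited table was 0.00, with a 95% counting interval of -0.12 to 0.12 and an FDR of 0.995. Scaled to total counts, the change was 0.14 (95% counting interval 0.02 to 0.26), and it was not called there either after adjustment over all regions. The m6A change is computed against the input, and the deposited expression fit may rest on the same input libraries.

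Of the 21 regions 19 had an FDR in the authors' deposited table, and 6 were called at an FDR under 0.05, 2 higher and 4 lower, where 8.95% of the 24688 regions with an FDR were called, 2.71% higher and 6.24% lower. The p-values behind these calls hold counting error only, so deep regions are called for small changes. Among the 550 regions with at least 5000 counts in each of the 4 sums 60.0% were called, and among the 11 apolipoprotein regions at that depth 6 were called (54.5%). The share of calls is therefore near that of equally deep regions. With changes scaled to total counts in place of the deposited ones, 11 regions were called, 9 higher and 2 lower. None of the 19 regions was called with a change of at least 2-fold, where 0.401% of all regions were.

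Within APOB, regions differed in the direction of their m6A change. The 9 APOB regions are numbered by falling control input count, and their positions along the transcript were not used here. Region 1 held 204240 IP and 128240 input counts after toosendanin, against 321654 IP and 175134 input counts in control. Its scaled IP over input ratio was 1.33 after toosendanin and 1.48 in control, and the deposited log2 m6A change was -0.21 ± 0.01 (FDR of the authors' deposited table = 2.62e-217, counting error only). Region 2 had a ratio of 1.49 after toosendanin and 1.62 in control, with a change of -0.17 ± 0.01 in the authors' deposited table (FDR = 1.69e-70). Region 5 went the other way: it held 27794 IP and 29384 input counts after toosendanin, against 34734 and 43511 in control. Its ratio was 0.79 after toosendanin and 0.64 in control, and its change was 0.21 ± 0.02 in the authors' deposited table (FDR = 1.68e-35). Region 6 stood at 0.07 ± 0.02 in the authors' deposited table (FDR = 0.00514), and regions 3, 4, 7, 8 and 9, between -0.05 and 0.05, were not called. With the statistic widened by the spread of the 550 deep regions, an alternative chosen after seeing the data, region 1 kept its call and regions 2, 5 and 6 lost theirs. With the trend on the control ratio removed, also chosen after seeing the data, region 6 lost its call at 0.03, region 8 gained one at -0.14, and regions 1 and 2 shrank to -0.12 and -0.07.

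The 2 APOB regions with the highest ratios in control, 1 and 2, had lower ratios after toosendanin, and region 5, with a ratio under 1 in control, had a higher one. Regions 5 and 1, chosen as the highest and the lowest, differed by 0.42 on the log2 scale in the authors' deposited table (95% counting interval 0.39 to 0.45), and by 0.45 (0.42 to 0.48) when scaled to total counts. The log2 IP over input ratios of the 9 regions spanned 1.73 after toosendanin and 1.99 in control. Over the 550 deep regions, those with a control ratio above 1 had a median change of -0.09 in the authors' deposited table. The rest had a median of 0.03 (Pearson r = -0.59 across regions). Change and control ratio share the control counts, and the regions are not independent. Of these 550 regions 4% lay at or below region 1 and 93.3% at or below region 5 in the authors' deposited table, so neither lies outside the range of other deep regions.

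**Figure D4:**
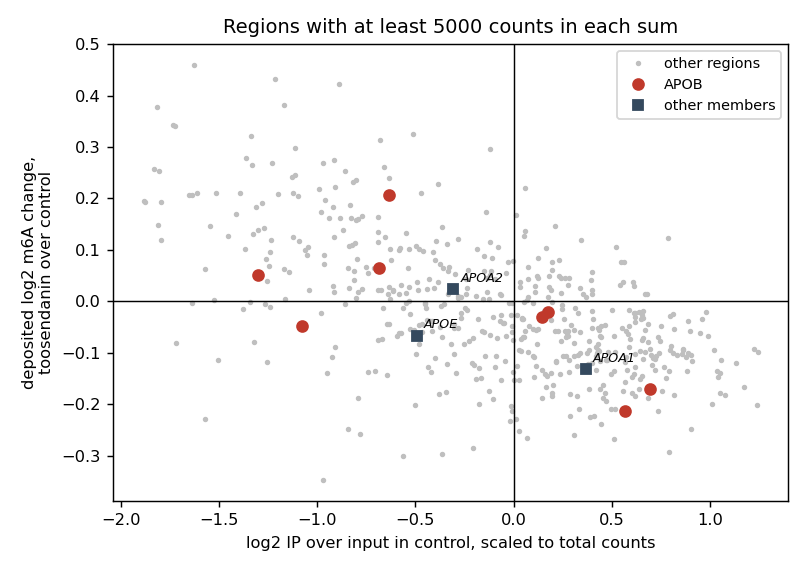
The authors' deposited log2 m6A change (toosendanin over control) against the log2 IP over input ratio in control, scaled to total counts, for the 550 regions with at least 5000 counts in each sum; round points are 8 APOB regions, squares are the regions of APOA1, APOA2 and APOE, and grey points are all others, the overlapping APOA1-AS label included. The grey points slope downward, and the APOB regions run from 0.21 (control ratio under 1) to -0.21 (control ratio above 1). The 2 APOB regions with the lowest control ratios stand at 0.05 and -0.05.

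For APOA1 and APOE the direction of the m6A change differed between the deposited value and the one scaled to total counts. The gap between these readings ran from 0.05 to 0.14 over the apolipoprotein regions, so it was not a constant shift. Its source is not stated and was not tested. The single APOA1 region held 172547 IP and 110707 input counts after toosendanin, against 165107 and 103188 in control, so its scaled ratio was 1.30 after toosendanin and 1.29 in control. Its change was -0.13 ± 0.01 in the authors' deposited table (FDR = 4.04e-58), but 0.01 when scaled to total counts (95% counting interval -0.01 to 0.03). The larger APOE region had a ratio of 0.75 after toosendanin and 0.71 in control, with a change of -0.07 ± 0.01 in the authors' deposited table (FDR = 7.12e-05) and 0.08 when scaled to total counts (0.05 to 0.10). No direction is therefore given for either gene. Reads of APOA1 and of the label APOA1-AS cannot be told apart here: that label held 51389 toosendanin input and 44786 control input counts, although its expression was near 0.

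The other regions were not called in the authors' deposited table. APOA2 had a ratio of 0.89 after toosendanin and 0.81 in control, with a change of 0.02 ± 0.01 in the authors' deposited table (FDR = 0.213), while scaled to total counts it was 0.13 (0.11 to 0.15) and called. APOH stood at 0.11 ± 0.04 in the authors' deposited table (FDR = 0.0787), and at 0.16 (0.08 to 0.24) scaled to total counts, where it was called. The larger APOA5 region stood at -0.05 ± 0.08 in the authors' deposited table (FDR = 0.754), and at 0.09 (-0.07 to 0.24) scaled to total counts. Among the 14 apolipoprotein regions with at least 1000 counts in each sum, APOC1 had the lowest ratios, with 0.43 after toosendanin and 0.35 in control in its most counted region, and a change of 0.14 ± 0.06 in the authors' deposited table (FDR = 0.0859), while scaled to total counts it was 0.27 (0.16 to 0.38) and called. In control only 2.12% of the 3351 regions with at least 1000 counts in each sum had a ratio at or below that of this APOC1 region. The ratio was above 1 in 8 of the 21 regions after toosendanin and in 8 of 21 in control. Because totals over listed regions set the scale, a ratio of 1 marks the average over these regions and a lower one does not show that the antibody failed to enrich.

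**Figure D5:**
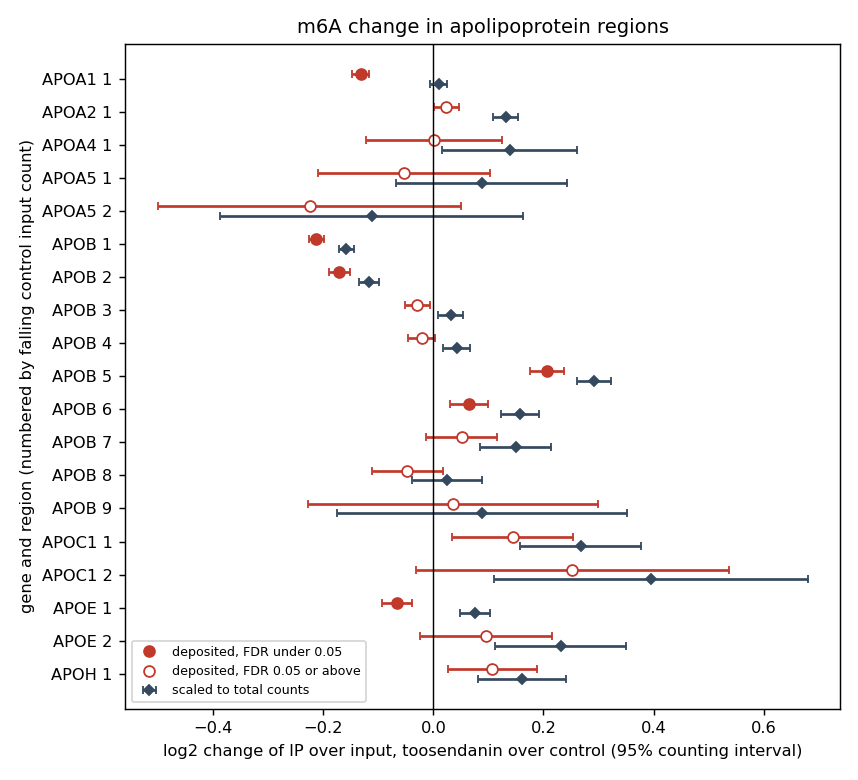
Log2 change of IP over input, toosendanin over control, for the 19 apolipoprotein regions with an FDR: red points are the authors' deposited values (filled at an FDR under 0.05) and dark diamonds the values scaled to total counts, both with 95% counting intervals. The scaled values lie to the right of the deposited ones in all 19 regions, by 0.05 to 0.14. APOA1 region 1, APOA5 region 1, APOE region 1 and APOB regions 3, 4 and 8 change side or reach 0. APOB regions 1, 2, 5 and 6, called as deposited, keep their side.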

How the data were processed

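RNA of HepG2 cells was measured in 12 libraries, 3 each of toosendanin IP, toosendanin input, control IP and control input, made with a stranded kit that adds molecular identifiers, per the labels' protocols. The submitters' processing notes list HISAT2, StringTie and DESeq and give no versions. Not given in the sources used here are the genome build, annotation, strand setting, use of the identifiers and region caller. Nothing says that libraries came from separate cultures, so the spread behind the p-values may be technical only.

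The expression table is the authors' own comparison and, per the file headers, holds DESeq2 columns: a mean normalized count (a signal, deposited by the authors), the log2 fold change and its error, a Wald score, and p-values, of which the adjusted p served as the call under 0.05. The m6A table, per the file headers, holds counts summed by the authors over libraries, with a deposited log2 change and p-values. Its counts cover regions, so their totals are not library depths. A positive change was read as higher after toosendanin, as the summed counts show.

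Counts were scaled to total region counts, and 95% intervals (exact Poisson for levels, normal on the log2 scale for ratios) cover counting error only. The standard error of an m6A change was taken from the deposited p and log2 change. The test of total-scaled region counts (Poisson error) was tried on simulated data. These were drawn with the same Poisson error, so the trial cannot show how the test does where spread exceeds counting error. No edgeR fit was possible without counts per library. The members and lists were chosen with earlier results of these data known. Named were all 10 members, the cluster neighbours, and per list the 4 smallest adjusted p and the extremes, except genes that are not reported here; MTTP, HNF4A, PPARA, TTR, SERPINA1, RBP4, SI and CDX1 were added after their values were seen. Python 3.11.15, numpy 2.4.6, pandas 2.3.3, scipy 1.17.1 and matplotlib 3.10.9 were used. Alternatives were other adjustments, thresholds, scalings, filters and wider errors.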

Additional observations from a re-analysis of the deposited data

How the results depend on the processing

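Of the 10 genes 7 were higher and 0 lower under an adjustment over every p-value, at 0.01, in the upper 50% of means, after centring and, chosen after seeing the data, among genes with a mean of at least 1000; at 2-fold 2 were called, which were APOA4 and APOC3. From summed inputs APOB turned to 0.0043. Of the 73 pathway genes 32 were called at 0.05, 24 at 0.01 and 4 at 2-fold.

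Of the apolipoprotein m6A regions 6 were called as deposited, 0 at 2-fold, 11 scaled to total counts (9 higher, 2 lower), 8 after centring, 5 with the statistic widened 1.3 times and 3 among the 8 regions with a ratio above 1 in control, a setting that by construction leaves out 13. Chosen after seeing the data, a statistic widened 5.08 times, the spread of the 550 deep regions, left 1 call, APOB region 1. An adjustment over regions with at least 5000 counts in each sum only, also chosen after seeing the data, gave 7 calls, 2 higher and 5 lower. It gave a call to APOB region 3 (-0.0294). Scaled to total counts, the values turned to 0.0096 for APOA1, 0.0758 for APOE region 1, 0.0876 for APOA5 region 1, and 0.0248, 0.0316 and 0.0420 for APOB regions 8, 3 and 4; after centring APOB regions 3 and 4 turned to 0.0138 and 0.0219. With the trend on the control ratio removed, also chosen after seeing the data, APOA5 region 1 turned to 0.0018, APOB regions 7, 3 and 4 to -0.0456, 0.0258 and 0.0339, and APOE region 2 to -0.0014. That setting also ended the call of APOB region 6 (0.0285), gave one to APOB region 8 (-0.1441) and shrank APOB regions 1 and 2 to -0.1211 and -0.0684 and APOA1 to -0.0403. Scaling to total counts gave calls to APOA2, APOH, APOB regions 4 and 7, APOC1 region 1 and APOE region 2, and centring to APOA2, APOH and APOC1 region 1, while APOE region 1 lost its call on centring (-0.0234). The cause was not tested.

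No paired analysis was possible because the tables hold no values per library, and for the same reason no replicate was left out. APOC1 regions 3 and 4, with 80 and 8 toosendanin input counts against 61 and 4 in control, are too shallow for a change to be read.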
